A study of Mus musculus with 13 samples.

Results

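The genes described here are 10 chaperones and folding enzymes of the endoplasmic reticulum (ER), of 30479 genes measured. Clgn, Calr3 and Pdilt are the testis-specific ones, and Hspa5, Hsp90b1, Hyou1, P4hb, Pdia3, Calr and Canx are general ones that most cells use. They were chosen by their known function, with their measured levels in all 13 libraries already known, and no threshold on a value decided membership. All 10 had a row in the table and passed the filter on low values in every fit. RNA was sequenced from round spermatids (7 libraries) and from whole testis (6 libraries) of mice carrying the Wfdc15a knockout (KO), of heterozygous (Het) and of wild-type (WT) mice, all at postnatal day 25. Round spermatids came from 3 KO, 2 Het and 2 WT samples, and testis from 3 KO, 1 Het and 2 WT samples. The allele and the strain were not given in the sources used here, and the labels do not tie a library to an animal, so a p-value here reflects the spread among libraries, part of which may be technical.

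Secreted and membrane proteins fold in the ER. Hspa5 (BiP) is the ER member of the HSP70 family, Hsp90b1 (GRP94) that of the HSP90 family, and Hyou1 (GRP170) is a nucleotide exchange factor for Hspa5. The lectins Canx (calnexin) and Calr (calreticulin) hold glycoproteins, together with the disulfide isomerase Pdia3 (ERp57), and P4hb is the classical protein disulfide isomerase. Male germ cells add homologues made in the testis: Clgn (calmegin) resembles calnexin, Calr3 (calsperin) resembles calreticulin, and Pdilt resembles the disulfide isomerases. In mice, loss of Clgn, Calr3 or Pdilt leaves sperm without mature ADAM3, a surface protein needed for passage into the oviduct. Spermatids build the acrosome and the sperm surface from proteins that pass through the ER, so these genes describe the folding machinery of cells about to make many such proteins.

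Some of the general genes share a known promoter element. The ER stress response element, through which the ATF6 and XBP1 factors raise chaperone genes, consists of CCAAT and CCACG with 9 bases between them. RefSeq promoters (build GRCm38.p6, 250 bases before to 50 after a start) were found for 8 of the 10 genes; Clgn and Hyou1 were not matched. The element, searched on both strands, stood in the promoters of 4 members, which were Hspa5, Calr, Canx and, with 2 copies, Hsp90b1, against 39 of all 32851 promoters (0.119%). The 5 copies are shown because they are what these promoters have in common; they are written 5′ to 3′ along the strand on which they read, and the capitals mark CCAAT and CCACG:
Hspa5 element: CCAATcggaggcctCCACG
Calr element: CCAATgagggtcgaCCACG
Hsp90b1 element upstream: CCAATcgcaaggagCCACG
Hsp90b1 element downstream: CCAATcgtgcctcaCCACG
Canx element: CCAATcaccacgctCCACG
The Hspa5 copy lies at chr2:34772025-34772043 on the plus strand, 65 to 47 bases before the RefSeq start used for the window. The gene as annotated below starts further upstream, at chr2:34771970, so by those coordinates the copy lies within the gene. The Calr copy lies at chr8:84847075-84847093 (plus strand), the Canx copy at chr11:50325800-50325818 (minus strand), and the Hsp90b1 copies at chr10:86705638-86705656 (minus strand) and chr10:86705533-86705551 (plus strand). The windows of Pdia3 and P4hb and those of Calr3 and Pdilt did not hold these letters. Of the 2 Calr3 promoters found, the one whose window holds the gene's annotated start was taken. Below, it is shown beside 1 general promoter and the Pdilt promoter, with the Hspa5 element in capitals:
Hspa5 promoter: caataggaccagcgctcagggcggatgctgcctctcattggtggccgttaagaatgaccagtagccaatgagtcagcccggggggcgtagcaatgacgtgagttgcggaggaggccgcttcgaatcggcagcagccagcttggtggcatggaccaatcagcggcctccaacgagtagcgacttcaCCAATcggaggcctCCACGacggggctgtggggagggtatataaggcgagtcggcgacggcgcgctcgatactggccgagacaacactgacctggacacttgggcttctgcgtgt
Calr3 promoter: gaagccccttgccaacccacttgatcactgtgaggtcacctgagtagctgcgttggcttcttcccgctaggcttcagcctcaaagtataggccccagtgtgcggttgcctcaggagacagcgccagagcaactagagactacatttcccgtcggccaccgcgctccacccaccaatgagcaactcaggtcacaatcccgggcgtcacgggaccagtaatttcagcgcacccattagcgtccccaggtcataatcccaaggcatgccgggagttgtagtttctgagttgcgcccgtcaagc
Pdilt promoter: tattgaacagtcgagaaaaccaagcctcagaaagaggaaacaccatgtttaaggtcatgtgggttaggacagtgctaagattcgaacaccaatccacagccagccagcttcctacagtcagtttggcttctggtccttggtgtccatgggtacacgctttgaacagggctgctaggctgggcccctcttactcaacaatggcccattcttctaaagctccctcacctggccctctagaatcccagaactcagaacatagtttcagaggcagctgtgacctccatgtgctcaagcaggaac
They cover chr2:34771840-34772139 (plus strand), chr8:72443729-72444028 (minus strand) and chr7:119523433-119523732 (minus strand). A second form of the element, ATTGG and CCACG with 1 base between them, was in 12 promoters (0.0365%) and in 0 members. The cAMP response element TGACGTCA, a site of CREM, a regulator of spermatid genes, was in 588 promoters (1.79%) and in 0 members. A match or its absence describes these letters in this window alone.

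Library totals ran from 10825690 to 20927428 reads in round spermatids and from 7375270 to 18438704 in testis. Levels are in RPM, reads scaled to the library total. Where a gene had no read, counting error alone allows a level of 3 reads, 0.143 to 0.407 RPM depending on the library. Wfdc15a itself had 48.1 to 97.9 RPM in KO round spermatids, 65.0 to 71.5 RPM in Het ones and 234 to 267 RPM in WT ones. In testis its level was 36.8 to 116 RPM in KO libraries, 48.4 RPM in the Het library and 207 to 212 RPM in WT libraries; which of its exons the allele removes was not given in the sources used here. The libraries of both cell types fell into 2 sets on the first principal component of each cell type, which held 55.6% of the variance in round spermatids and 71.6% in testis. Set 2 held the Het libraries and KO replicates 2 and 3, and set 1 held both WT libraries and KO replicate 1. The labels name no batch, the sets are not groups of the study, and set and genotype overlap in part. Somatic markers were higher in set 2. Summed over 8 Sertoli cell genes they reached 96.2 to 246 RPM in set 2 and 6.74 to 10.7 RPM in set 1 of round spermatids, and 1833 to 1973 RPM in set 2 and 11.4 to 74.1 RPM in set 1 of testis, so the testis libraries of set 1 nearly lacked them. Over 7 stromal genes the sums were 494 to 1088 RPM in set 2 and 6.79 to 15.4 RPM in set 1 of round spermatids. In testis they were 754 to 1253 RPM in set 2. Set 1 of testis was not uniform, with 16.2 to 21.1 RPM in WT and 222 RPM in KO replicate 1. Over 7 Leydig cell genes the WT testis libraries had 42.0 to 51.8 RPM, KO replicate 1 had 120 RPM, and set 2 had 576 to 830 RPM. The 8 round spermatid markers summed to 786 to 1222 RPM in set 2 and 1372 to 1788 RPM in set 1 of round spermatids. In testis the sums were 399 to 517 RPM in set 2 and 1274 to 3982 RPM in set 1. By this sum the WT testis libraries were not lower than WT round spermatids, while KO replicate 1 of testis, at 1274 RPM, was below every set 1 round spermatid library. Single markers went both ways in WT, with 3 of the 8 higher in round spermatids. Over the 8 the differences ran from −2.36 to 3.59 on the log2(RPM + 1) scale, with a median of −1.63. In the WT fit given below, 3 were called higher and 0 lower, where 9.09% of all genes were called higher and 2.39% lower. The 8 meiotic spermatocyte markers were higher in set 2 as well, with 2369 to 2670 RPM in set 2 and 1916 to 2093 RPM in set 1 of round spermatids, and 3108 to 3359 RPM in set 2 and 1436 to 1749 RPM in set 1 of testis. The share of these differences in the results below was not tested, and in bulk RNA fewer cells of a type and less RNA per cell cannot be told apart. KO replicate 1 of testis had the lowest total, and 15044 genes without a read against 7387 to 10513 in the other libraries.

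Clgn (ENSMUSG00000002190, chr8:83389867-83428552, plus strand, 15 exons) had the highest level per length of the 10 genes in WT round spermatids. In round spermatids it had 724, 1421 and 1482 RPM in KO, 1392 and 1548 RPM in Het libraries, and 615 and 612 RPM in WT libraries. In testis it had 359, 1047 and 1037 RPM in KO, 1046 RPM in the single Het library, and 161 and 189 RPM in WT libraries. Every round spermatid library of a set stood above every testis library of the same set, and in both cell types KO replicate 1 was nearer to the WT libraries than to the other KO libraries. KO and WT libraries did not overlap in either cell type. The share of all genes whose KO and WT libraries did not overlap was not counted. Here and below, such statements only describe the libraries of each gene.

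Calr3 (ENSMUSG00000019732, chr8:72424176-72443870, minus strand, 10 exons) was the lowest of the 3 testis-specific genes in round spermatids and in KO and Het testis. In WT testis it stood above Pdilt in replicate 1 (59.8 against 25.1 RPM) and below Pdilt in replicate 2 (14.4 against 21.5 RPM). It had 30.7, 47.0 and 38.5 RPM in KO, 51.8 and 51.6 RPM in Het libraries, and 27.3 and 43.7 RPM in WT round spermatids. In testis it had 0, 41.6 and 20.3 RPM in KO, 30.8 RPM in the single Het library, and 59.8 and 14.4 RPM in WT libraries. The groups overlapped in both cell types. The library at 0 was KO replicate 1, where up to 0.407 RPM could have gone unseen, and the WT testis libraries held both the highest level of the 13 libraries and the lowest one above 0.

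Pdilt (ENSMUSG00000030968, chr7:119486587-119523489, minus strand, 12 exons) lacks the usual active-site cysteines of its family and is known as a partner of Clgn in the mouse. It had 146, 295 and 223 RPM in KO, 244 and 253 RPM in Het libraries, and 118 and 143 RPM in WT round spermatids. Testis had 21.0, 138 and 101 RPM in KO, 141 RPM in the single Het library, and 25.1 and 21.5 RPM in WT libraries. KO and WT did not overlap in round spermatids, where the lowest KO and the higher WT library nearly met. In testis KO replicate 1 lay below both WT libraries, so the groups overlapped. Of its exon bases, 138 also belong to the antisense Gm37518, and Smart-seq2 does not record strand.

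Among the general chaperones, Hspa5 (ENSMUSG00000026864, chr2:34771970-34777547, plus strand) had 273, 854 and 960.0 RPM in KO, 887 and 929.6 RPM in Het libraries, and 187 and 262 RPM in WT round spermatids. In testis it had 116, 894 and 974 RPM in KO, 877 RPM in the single Het library, and 125 and 161 RPM in WT libraries. Set 2 levels were close to each other in both cell types. KO replicate 1 stood just above the WT libraries in round spermatids and just below them in testis, so that KO and WT overlapped only in testis.

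Hsp90b1 (ENSMUSG00000020048, chr10:86690209-86705509, minus strand) had 294, 928 and 953 RPM in KO, 1028 and 1103 RPM in Het libraries, and 285 and 278 RPM in WT round spermatids. It had 199.7, 1177 and 1319.6 RPM in KO, 1271 RPM in the single Het library, and 92.8 and 147 RPM in WT testis. KO and WT did not overlap in either cell type, although KO replicate 1 of round spermatids lay just above the WT libraries. Its exons share 415 bases with an antisense transcribed pseudogene, 1810014B01Rik, so part of its reads could belong there.

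Hyou1 (ENSMUSG00000032115, chr9:44379490-44392369, plus strand) spanned the widest range of the 9 genes that had reads in every library. It had 23.5, 71.3 and 135 RPM in KO, 75.1 and 77.1 RPM in Het libraries, and 15.0 and 13.5 RPM in WT round spermatids. In testis it had 6.78, 291 and 277 RPM in KO, 291 RPM in the single Het library, and 6.996 and 3.99 RPM in WT libraries. Set 2 testis stood above every round spermatid library, while set 1 testis stood below every one, and KO and WT overlapped in testis alone.

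P4hb (ENSMUSG00000025130, chr11:120560298-120573253, minus strand) was low in set 1. It had 11.8, 98.2 and 103 RPM in KO, 91.6 and 97.7 RPM in Het libraries, and 7.53 and 6.23 RPM in WT round spermatids. In testis it had 14.8, 262 and 284 RPM in KO, 259 RPM in the single Het library, and 29.7 and 23.2 RPM in WT libraries. It was the only member whose testis libraries lay above the round spermatid libraries within both sets. KO and WT overlapped in testis and not in round spermatids.

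Pdia3 (ENSMUSG00000027248, chr2:121413775-121438687, plus strand) had 387, 733 and 726 RPM in KO, 671 and 839.7 RPM in Het libraries, and 352 and 364 RPM in WT round spermatids. It had 133, 765 and 767 RPM in KO, 713 RPM in the single Het library, and 44.5 and 58.2 RPM in WT testis. In set 1 the sorted cells were far above testis, and in set 2 the cell types overlapped. KO and WT overlapped in neither cell type.

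The glycoprotein lectins closed the list. Calr (ENSMUSG00000003814, chr8:84841850-84846934, minus strand) had 252, 398 and 359 RPM in KO, 319 and 353 RPM in Het libraries, and 179.6 and 196 RPM in WT round spermatids, and 167, 445 and 469 RPM in KO, 446 RPM in the single Het library, and 143 and 134 RPM in WT testis. It varied least among the general genes in testis, and KO and WT overlapped in neither cell type. Canx (ENSMUSG00000020368, chr11:50293961-50325673, minus strand) had 59.4, 135 and 185 RPM in KO, 148 and 156 RPM in Het libraries, and 63.4 and 50.2 RPM in WT round spermatids, and 37.0, 320.3 and 269.6 RPM in KO, 321 RPM in the single Het library, and 25.7 and 34.7 RPM in WT testis. KO replicate 1 of round spermatids lay between the WT libraries, so KO and WT overlapped there, while in testis they did not.

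**Figure D1:**
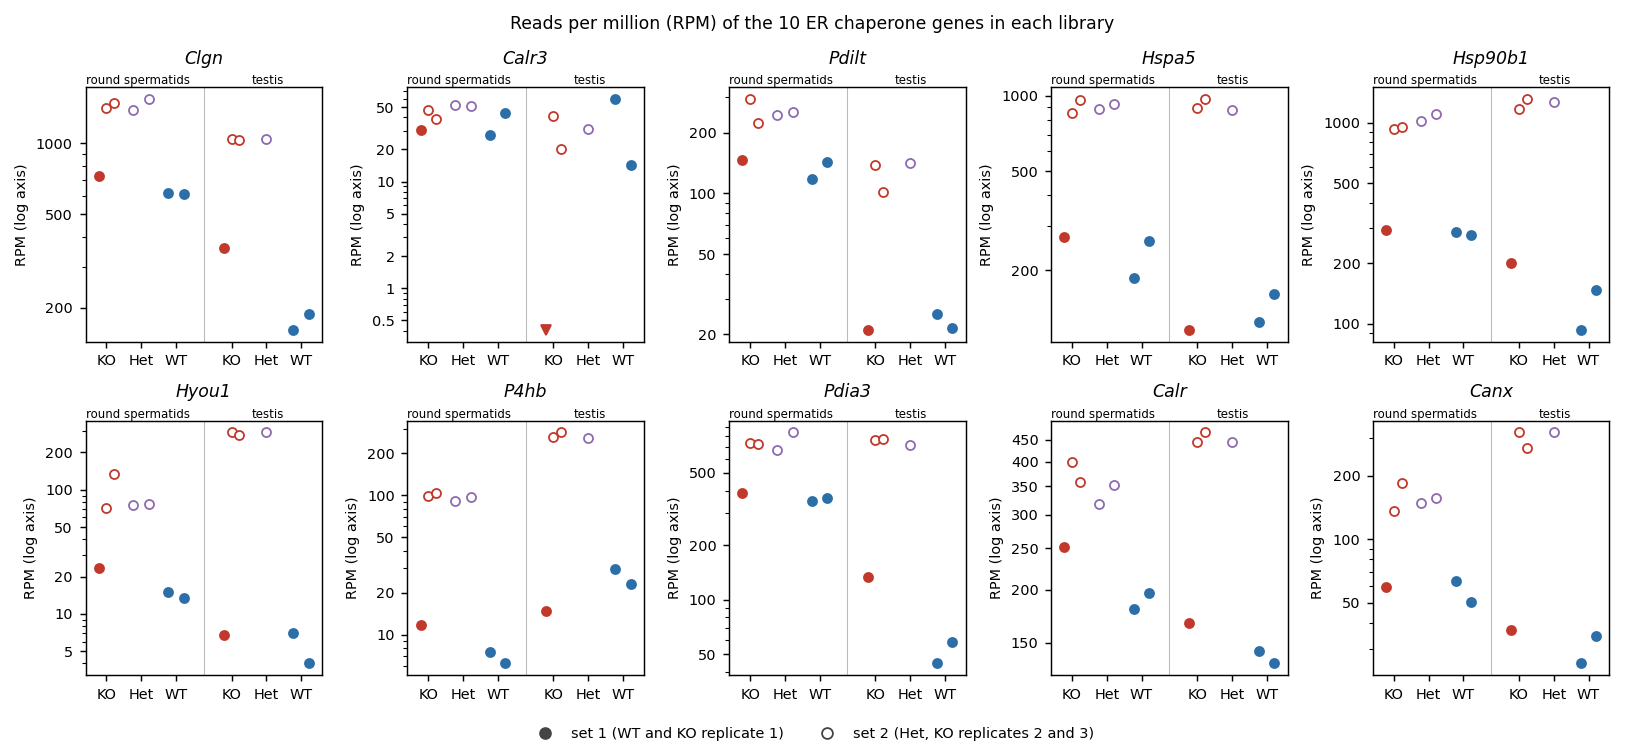
Level of each of the 10 genes in each library, in RPM on a log axis, by genotype, with round spermatids left of testis; filled points are set 1 and open points set 2, and the triangle marks the level of 3 reads for Calr3 in the testis library where it had no read. For 9 genes the open points lie above all filled points of the same cell type, and Calr3 is the exception in both.

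The 2 sets separated every member but Calr3. For 9 of the 10 genes every set 2 library was above every set 1 library, in round spermatids and again in testis, where 25.6% and 50.2% of all genes tested were placed that way. Over the 10 genes the median difference, set 2 minus set 1, was 1.29 on the log2(RPM + 1) scale in round spermatids, against 0.22 over all genes, and 2.97 in testis, against 1.003 over all genes. In testis the ratio of mean RPM, set 2 over set 1, was 48.4 for Hyou1, 11.9 for P4hb, 9.53 for Pdia3, 9.36 for Canx, 8.56 for Hsp90b1 and 6.85 for Hspa5, but 3.06 for Calr. The testis-specific genes had 5.63 for Pdilt, 4.41 for Clgn and 1.25 for Calr3. In round spermatids the same ratio was 11.5 for P4hb, 5.18 for Hyou1, 3.77 for Hspa5, 3.51 for Hsp90b1, 2.70 for Canx, 2.02 for Pdia3 and 1.71 for Calr. There Clgn had 2.25, Pdilt 1.87 and Calr3 1.39, so the general and the testis-specific genes overlapped in that ratio. No test was made of these differences, since the sets came from the data.

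Per kilobase of merged exon, levels of different genes can be set side by side. In WT round spermatids the order of mean levels was Clgn at 152.5, Pdia3 at 129 and Hsp90b1 at 99.6 RPM per kb, then Calr at 86.0, Pdilt at 60.7 and Hspa5 at 59.9 RPM per kb. Calr3 followed at 18.1, Canx at 13.3, Hyou1 at 2.98 and P4hb at 2.41 RPM per kb. Pdilt and Hspa5 overlapped between libraries, as did Calr3 and Canx; the other neighbours did not. In WT testis Calr came first at 63.4 RPM per kb, ahead of Clgn at 43.4, Hsp90b1 at 42.5 and Hspa5 at 38.0 RPM per kb, of which Clgn, Hsp90b1 and Hspa5 overlapped with their neighbours. Pdilt stood at 10.9 RPM per kb there, below Calr3 and Pdia3, and Hyou1 was last at 1.15 RPM per kb. In KO round spermatids Clgn again came first, at 300 ± 105 RPM per kb (SD, n = 3), but overlapped with Hsp90b1 at 257 ± 132 RPM per kb (SD, n = 3). In KO testis Hsp90b1 led at 318 ± 216 RPM per kb (SD, n = 3), and all neighbours overlapped.

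Round spermatids were compared with testis to ask which folding genes were higher in the sorted cells than in the tissue they came from. In WT libraries, in limma's fit of all 13 libraries, Pdia3 (log2 difference 2.79 ± 0.69 SE, adjusted p = 0.0234), Pdilt (2.43 ± 0.68, adjusted p = 0.0418) and Clgn (1.81 ± 0.48, adjusted p = 0.0325) were higher in round spermatids. Thus 3 of 10 members were called higher and 0 lower, where 9.09% of all genes were called higher and 2.39% lower. The others had differences of 1.27 for Hyou1, 1.26 for Hsp90b1, 0.90 for Canx, 0.64 for Hspa5, 0.44 for Calr, 0.22 for Calr3 and −1.80 for P4hb, with adjusted p between 0.384 and 0.969. The WT calls rested on 2 libraries per cell type: 0 were called once any 1 of the 4 WT libraries was left out, and Pdia3 alone without either Het library of round spermatids. Without a filter 1 member was called, Pdia3, and by voom 1, Pdilt. In KO libraries 0 of 10 were called, against 0.936% of all genes higher and 1.42% lower. There Calr3 had a difference of 2.02 ± 1.09 SE and Pdilt one of 1.65 ± 0.56 SE (adjusted p = 0.308 and 0.124), and 1 member had an unadjusted p below 0.05. Without KO replicate 1 of testis 4 were called, Pdilt higher and Hyou1, P4hb and Canx lower, where 8039 of 19998 genes were called. With the replicate number as a block, 1 was called, Pdilt (1.65, adjusted p = 0.0389), where 987 of 20085 genes were called. Same-numbered KO libraries of the cell types deviated together (correlations 0.504, 0.283 and 0.403 over genes), whereas the WT ones did not (−0.0233). The KO libraries of each cell type straddle both sets.

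Within each set the cell types could be compared without that split. A comparison added after the data were seen gave WT alone, with the sets held apart in the model, so that the spread came from libraries of 1 group and set. The sets came from these same values, so splitting by them takes their difference out of the spread. The SE of Clgn was 0.11 there, against 0.48 when groups were not split by set. Calls, standard errors and p-values of all comparisons within sets are therefore descriptions. Of the 10 genes 8 were called higher in round spermatids, where 25.2% of all genes were, and 1, P4hb, was called lower, where 12.1% of all genes were (−1.80 ± 0.21 SE, adjusted p = 1.21e-05). Calr3 was not called (0.22 ± 0.50 SE, adjusted p = 0.785). Averaging WT and KO replicate 1 of set 1 gave 9 higher and P4hb lower (−1.05 ± 0.18 SE), against 25.7% and 12.1% of all genes. The values were 2.58 for Pdilt, 2.16 for Pdia3, 1.46 for Hyou1, 1.41 for Clgn, 0.94 for Hspa5, 0.91 for Hsp90b1, 0.78 for Canx and 0.51 for Calr. The Calr3 value there, 2.60 ± 0.43 SE, rests on the KO library with no Calr3 read.

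In set 2, with Het and KO replicates 2 and 3, Pdilt (0.96 ± 0.16 SE, adjusted p = 2.77e-04) and Clgn (0.48 ± 0.08 SE, adjusted p = 3.85e-04) were higher in round spermatids. Hyou1 (−1.72 ± 0.23 SE), P4hb (−1.44 ± 0.17 SE), Canx (−0.98 ± 0.17 SE) and Calr (−0.34 ± 0.10 SE) were lower, with adjusted p between 2.04e-05 and 0.0137. Calr3 (0.63 ± 0.40 SE), Hspa5 (0.00 ± 0.13 SE), Pdia3 (0.00 ± 0.12 SE) and Hsp90b1 (−0.33 ± 0.13 SE, adjusted p = 0.0503) were not called. Over all genes 14.6% were called higher and 34.4% lower in set 2. The 2 genes called higher were both testis-specific and the 4 called lower were all general. As a description, the round spermatid difference in set 2 minus that in set 1 was −3.18 for Hyou1, −2.16 for Pdia3, −1.77 for Canx, −1.62 for Pdilt, −0.93 for Clgn and −0.39 for P4hb, against a median of −0.61 over all genes. In limma's test of that difference, made after the data were seen, 9 of 10 members were called lower and 0 higher, where 30.3% of all genes were called lower and 6.19% higher. The sets came from the same data, so nothing is read from those calls. The sets differ in genotype as well, with WT in set 1 alone and Het in set 2 alone; set 2 testis also held more of the Sertoli transcripts given above than set 2 round spermatids did.

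**Figure D2:**
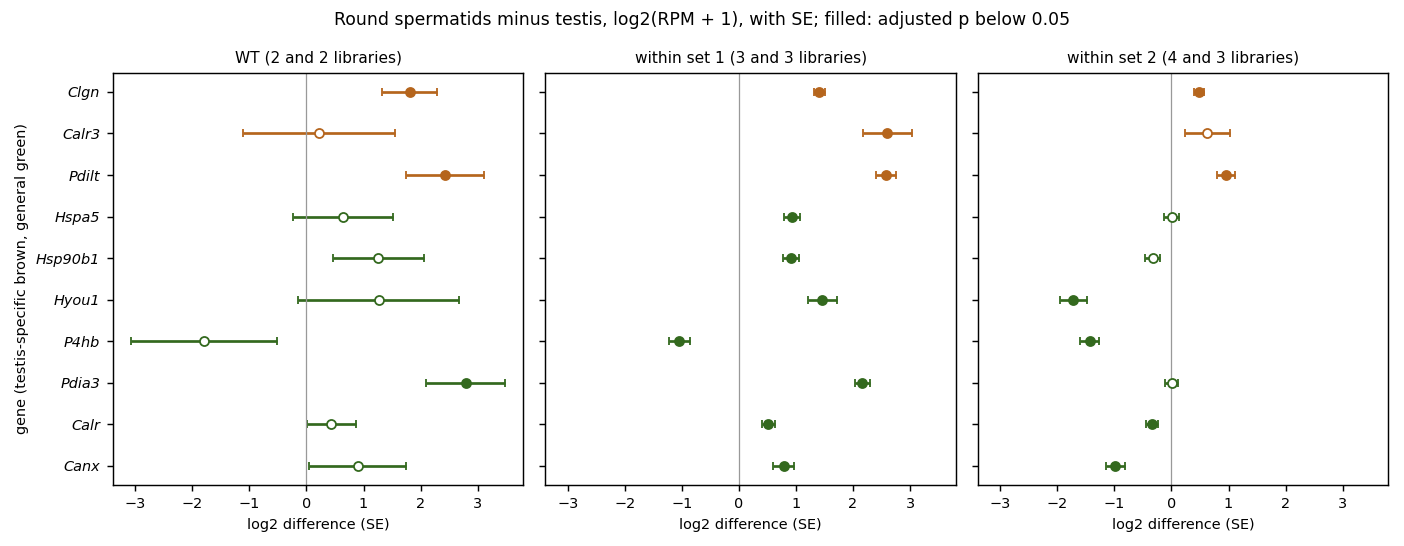
Difference between round spermatids and testis for each gene on the log2(RPM + 1) scale, with its standard error, in WT libraries (fit of all 13 libraries), within set 1 and within set 2; positive values are higher in round spermatids and filled points have an adjusted p below 0.05. Clgn and Pdilt are filled and positive in all 3 panels, and P4hb is negative in all 3. The sets came from the data, so filled points within sets are descriptions.

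KO was compared with WT in each cell type, the main contrast the groups allow. In round spermatids the KO minus WT difference was positive for all 10 genes, from 0.14 for Calr3 to 2.03 for Hyou1 and 2.70 for P4hb, with Clgn at 0.91, Pdilt at 0.71, Hspa5 at 1.45, Hsp90b1 at 1.18, Canx at 1.003, Calr at 0.81 and Pdia3 at 0.72. None passed limma's test (adjusted p between 0.130 and 0.804), and 0% of 18075 genes did, with an all-gene median of 0.03. For 9 of the 10 members the unadjusted p was below 0.05, as for 3813 of all genes, and voom on the recovered reads also called 0 genes. With KO replicate 1 left out, 9 of 10 members and 5514 of 17921 genes were called; KO is then set 2 and WT set 1. In testis the difference was 3.76 ± 1.59 SE for Hyou1, 3.05 ± 0.80 SE for Pdia3, 2.52 ± 0.83 SE for Hsp90b1 and 2.06 ± 0.52 SE for Clgn, and ran from −1.66 for Calr3 to 2.27 for Canx in the other 6. Again 0 of 10 and 0% of 18570 genes were called, against 5 members and 4380 genes at an unadjusted p below 0.05, with an all-gene median of 0.63; voom called 0 genes too. Without KO replicate 1 of testis, 9 members and 11976 of 18378 genes were called. The sign of no member's KO minus WT difference turned when each library was centred on its own median, which moved the all-gene median in testis to −0.31. With the set as a covariate, the KO minus WT difference is that of KO replicate 1 minus WT, since WT lies in set 1 alone. The sign did turn there, in testis for Pdilt (−0.138), Hspa5 (−0.290) and P4hb (−0.789) and in round spermatids for Calr3 (−0.167). These values rest on 1 KO library per cell type and are not an effect over all KO libraries.

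Het round spermatids stood with KO replicates 2 and 3. The Het minus WT difference was positive for all 10 genes, from 0.57 for Calr3 to 3.61 for P4hb. It was 1.26 for Clgn, 0.93 for Pdilt, 2.34 for Hyou1, 2.03 for Hspa5 and 1.92 for Hsp90b1, and 0 of 10 were called (adjusted p between 0.0638 and 0.279), as were 0% of all genes. At an unadjusted p below 0.05 there were 9 members and 4542 genes, and voom called 0. Without KO replicate 1, which enters this fit through the shared spread, 9 members and 4739 of 17921 genes were called. Without KO replicate 3 there were 7 members and 1156 of 17749 genes.

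Within set 2, KO could be set against Het without the split. In round spermatids the KO minus Het difference lay between −0.28 for Calr3 and 0.36 for Hyou1, and 0 of 10 genes were called, against 3 of all genes (0.0166%). In testis, with a single Het library assumed to vary like the others, it lay between −0.25 for Pdilt and 0.10 for Pdia3, with 0 of 10 and 0% called. In neither cell type did a member have an unadjusted p below 0.05. Within set 1, KO replicate 1 minus WT in round spermatids lay between −0.17 for Calr3 and 0.70 for P4hb, with 0 of 10 called and 2 at an unadjusted p below 0.05, against 0.116% of all genes called higher and 0.376% lower. In testis KO replicate 1 minus WT was 1.37 for Pdia3, 1.04 for Clgn and −0.79 for P4hb, and Calr3 had no read in it. The fit called these 4 members, and 18.4% of all genes higher and 19.2% lower, but its error comes from the other groups and cannot cover the spread of the 1 shallow library, so the values are descriptions. The KO effect did not pass the test of a difference between the cell types for any member, against 2.13% of all genes; the member nearest to it was Pdia3, whose effect in round spermatids minus that in testis was −2.33 ± 0.89 SE (adjusted p = 0.201). With the replicate number as a block, the Pdia3 difference was called (adjusted p = 0.0407), and no other member was, where 590 of 20085 genes were called.

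**Figure D3:**
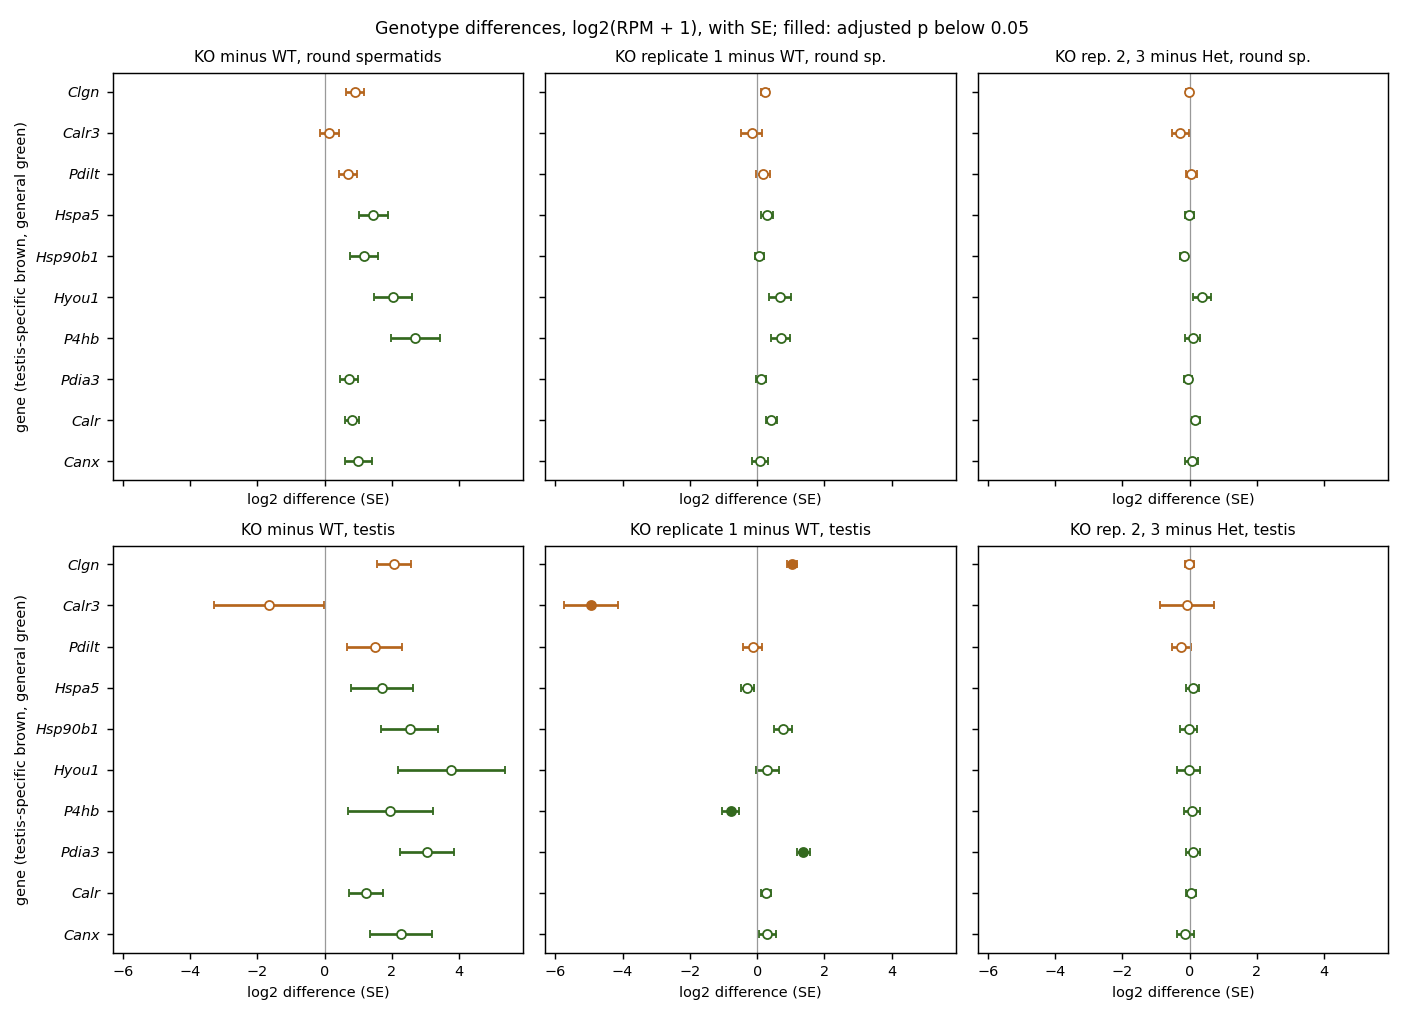
Genotype differences of each gene on the log2(RPM + 1) scale with standard errors, round spermatids above and testis below: KO minus WT, KO replicate 1 minus WT within set 1, and KO replicates 2 and 3 minus Het within set 2. In the left panels points lie mostly above 0 with no filled point, and in the right panels they lie between −0.28 and 0.36.

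The balance between testis-specific and general chaperones was given as a share, which a factor common to all 10 genes leaves unchanged. Clgn, Calr3 and Pdilt together made up 36.7, 32.2 and 30.4% of the 10 genes' RPM per kb in KO, 31.2 and 30.8% in Het, and 36.8 and 37.2% in WT round spermatids. In testis the share was 29.1, 20.2 and 18.0% in KO, 19.9% in Het, and 33.2 and 24.8% in WT libraries. The share still followed the set. Round spermatids had 36.7 to 37.2% in set 1 and 30.4 to 32.2% in set 2. Testis had 24.8 to 33.2% in set 1 and 18.0 to 20.2% in set 2. Every round spermatid library had a higher share than every testis library of its own set, by a margin that was wide in set 2 and, against 1 WT testis library, narrow in set 1. That WT library had 12.3% of the 10 genes in Calr3, against 0 to 3.45% in the other 12 libraries.

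Each testis-specific gene was then set against its general homologue, per kilobase. The ratio of Pdilt to P4hb was 16.5, 4.0003 and 2.88 in KO, 3.55 and 3.45 in Het, and 20.9 and 30.6 in WT round spermatids, against 1.90, 0.703 and 0.476 in KO, 0.726 in Het, and 1.13 and 1.23 in WT testis. No round spermatid library overlapped with any testis library. This ratio followed the set as well, with 16.5 to 30.6 in set 1 and 2.88 to 4.0003 in set 2 of round spermatids. In testis it was 1.13 to 1.90 in set 1 and 0.476 to 0.726 in set 2. Clgn to Canx was 12.98, 11.2 and 8.55 in KO, 10.03 and 10.6 in Het, and 10.3 and 12.98 in WT round spermatids, against 10.3, 3.48 and 4.10 in KO, 3.47 in Het, and 6.68 and 5.79 in WT testis. Here KO replicate 1 of testis fell among the round spermatids and the other testis libraries lay below them. Calr3 to Calr was 0.136, 0.132 and 0.119 in KO, 0.181 and 0.163 in Het, and 0.169 and 0.248 in WT round spermatids, against 0, 0.104 and 0.0481 in KO, 0.0769 in Het, and 0.465 and 0.119 in WT testis. The cell types overlapped in that ratio, and calreticulin outweighed its testis homologue in all 13 libraries. Against Pdia3, the other isomerase among the 10, Pdilt did not separate the cell types: the ratio ran from 0.389 to 0.519 in round spermatids and from 0.170 to 0.729 in testis. These ratios are descriptions without a test.

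**Figure D4:**
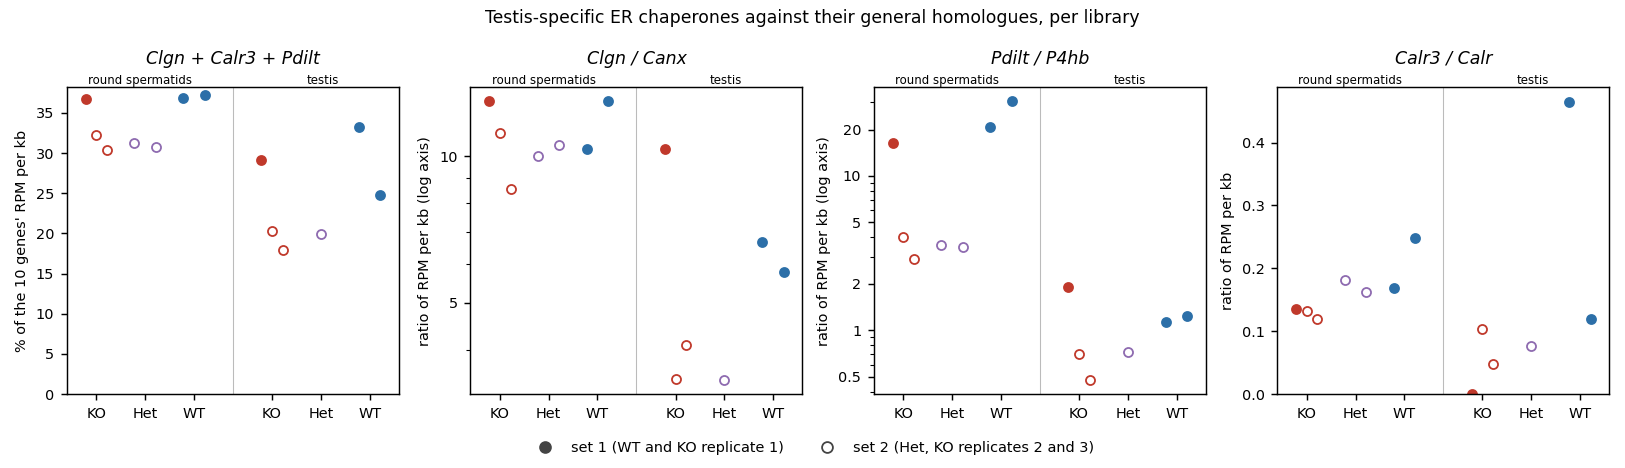
Share of the 3 testis-specific genes in the summed RPM per kb of the 10 genes (percent), and the ratios of Clgn to Canx, Pdilt to P4hb (both log axes) and Calr3 to Calr, in each library by genotype, with round spermatids left of testis; filled points are set 1 and open points set 2. Pdilt to P4hb lies between 2.88 and 30.6 in round spermatids and between 0.476 and 1.90 in testis.

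Genes whose pattern was most like a testis-specific member were found by Pearson's correlation of log2(RPM + 1) over the 13 libraries among 10044 genes. Closest to Clgn were Yme1l1 (r = 0.995), Usp8 (0.991) and Cand1 (0.991). Pdilt was closest to Ddx20 (0.983), Hspa4l (0.983), a heat shock protein gene of germ cells, and Usp15 (0.979). Calr3 was closest to Ccdc91 (0.976), Tmem144 (0.970) and Plb1 (0.965), which, like Calr3, had their lowest level in KO replicate 1 of testis. The points share cell type and set, which both separate many genes, so the values describe an order and no more.

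Of 32 other ER folding genes listed, 30 were tested across cell types; in WT, 2 were called higher and 1 lower in round spermatids in the fit of all libraries, against 9.09% and 2.39% of all genes, with a median of 0.14, against 0.20 over all genes. In WT alone within set 1 the counts were 10 higher and 4 lower (median 0.14), where 25.2% of all genes were called higher and 12.1% lower. With KO replicate 1 added they were 15 higher and 4 lower (median 0.51), against 25.7% and 12.1%, and within set 2 they were 3 higher and 16 lower (median −0.58), against 14.6% and 34.4%. Creld2, an ER gene known to be induced by unfolded proteins, had 242 and 271 RPM in WT round spermatids and 147 and 92.6 RPM in WT testis, and was higher in the sorted cells (1.13 ± 0.28 SE, adjusted p = 0.0250). It was higher in both sets too, by 1.13 ± 0.19 SE in WT of set 1, 0.62 ± 0.17 SE with KO replicate 1 added and 0.69 ± 0.15 SE in set 2. Ero1lb, an oxidase that feeds disulfides to the isomerases, was higher by 0.73 ± 0.12 SE in WT of set 1 and 0.55 ± 0.10 SE in set 2, and not called in the WT fit of all libraries (0.73 ± 0.26 SE, adjusted p = 0.101). Manf, a secreted ER stress protein, was called in WT of set 1 (0.64 ± 0.16 SE) and not in set 2 (0.13 ± 0.13 SE); a difference between the sets is not shown by that. Pdia6, a disulfide isomerase, was not called in WT of set 1 (0.04 ± 0.18 SE, adjusted p = 0.897) and was lower in set 2 (−0.37 ± 0.14 SE, adjusted p = 0.0423). With KO replicate 1 added, set 1 gave 1.34 ± 0.15 SE, which rests on the 18.6 RPM of that testis library, against 84.0 and 106.9 RPM in WT testis. For KO minus WT the list had 0 called in either cell type, with medians of 0.38 in round spermatids and 0.72 in testis.

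Regulators of the unfolded protein response and of ER-associated degradation (22 listed, 21 tested) were called 0 higher and 2 lower in WT round spermatids in the fit of all libraries. They were called 5 higher and 2 lower in WT of set 1, 5 higher and 4 lower with KO replicate 1 added, and 0 higher and 15 lower in set 2, to be read against the shares of all genes just given. Ddit3 (CHOP), a transcription factor induced by ER stress, had 53.4 and 42.8 RPM in WT round spermatids and 164 and 141 RPM in WT testis (−1.65 ± 0.29 SE, adjusted p = 0.00481). The other 11 libraries had 33.8 to 53.4 RPM, so the WT testis libraries stood alone, and in set 2 the difference was −0.13 ± 0.17 SE. Erlec1, a lectin of ER-associated degradation, was not called in WT of set 1 (0.22 ± 0.22 SE, adjusted p = 0.463) or in set 2 (−0.23 ± 0.17 SE); with KO replicate 1, whose testis library had 49.5 RPM, set 1 gave 0.69 ± 0.19 SE (adjusted p = 0.00929). Derl1 and Derl2, channel components of that pathway, were not called in WT of set 1 (−0.51 and −0.09) or in set 2 (0.05 and 0.29). For KO minus WT 0 were called, with medians of 0.50 in round spermatids and 1.58 in testis.

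Sperm surface proteins that these chaperones serve, and their maturation partners (16 listed, all tested), were called 3 higher and 2 lower in WT round spermatids in the fit of all libraries, against 9.09% and 2.39% of all genes. They were called 5 higher and 7 lower in WT of set 1 (25.2% and 12.1% of all genes), 8 higher and 6 lower with KO replicate 1 added (25.7% and 12.1%), and 10 higher and 3 lower in set 2 (14.6% and 34.4%). Adam3 was higher in round spermatids in WT of set 1 (0.30 ± 0.08 SE, adjusted p = 0.0114) and in set 2 (1.0001 ± 0.07 SE, adjusted p = 1.20e-06). It had 2282, 2179 and 2425 RPM in KO, 2092 and 2235 RPM in Het libraries, and 1672 and 1711 RPM in WT round spermatids, and 1027 to 1389.8 RPM over the testis libraries, which did not overlap. Adam2, whose protein pairs with other ADAM proteins on sperm, was lower in WT of set 1 (−0.36 ± 0.11 SE, adjusted p = 0.0176) and not called in set 2 (0.10 ± 0.09 SE). With KO replicate 1 added, set 1 turned to 0.32 ± 0.09 SE (adjusted p = 0.0162). Cmtm2a and Lypd4, both needed for ADAM3 on mouse sperm, were lower in round spermatids in WT of set 1 (−1.09 ± 0.08 SE and −0.37 ± 0.09 SE) and higher in set 2 (0.96 ± 0.07 SE and 1.06 ± 0.07 SE). For KO minus WT 0 of the 16 were called in either cell type, with medians of −0.13 in round spermatids and −0.53 in testis.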

How the data were processed

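RNA was measured in 13 libraries made by Smart-seq2, from about 2 ng of testis RNA or 100 to 200 sorted round spermatids, per the labels' protocols. The submitters' processing notes name HISAT2 2.1.0, Trim Galore 0.6.6, FastQC 0.11.8 and build mm10; the counting program is not given in the sources used here. The deposited values are log2 RPM, scaled by the authors to each library's total. Between 99.7% and 100.0% of non-zero values in a library gave whole reads within 0.01 read, with 0.9 read standing for none, which was set to 0. No other sample column was present. Genes that reached 1 RPM in 2 or more of a fit's libraries entered it as log2(RPM + 1), which shrinks changes of weakly expressed genes, in limma 3.58.1 in R 4.3.3 (trended empirical Bayes, two-sided, Benjamini-Hochberg over all genes, threshold 0.05). Each cell type was fitted with its genotypes; comparisons across cell types used all 13 libraries. Comparisons within sets were added after the data were seen, with genotype groups split by set. The sets came from the data, so the calls and p-values of these comparisons are descriptions. One such fit set the cell type difference of set 2 against that of set 1; as the sets came from the data, nothing is read from its calls. The code was tested on simulated data that held no split into sets, so that test does not show how calls behave in these libraries. Exon lengths and overlaps came from GENCODE M21, whose coordinates matched for all 10 genes. The members and lists were chosen with earlier results of these data known. The 4 genes of highest mean RPM in each list, and the 3 most correlated genes with a mean of at least 5 RPM, were named. Same-numbered libraries were not paired by the labels. Alternatives were another pseudocount (0.1 RPM), no filter, centring, library weights, voom, the replicate block, the set as a covariate, another choice of libraries in the fit, and each library left out.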

Additional observations from a re-analysis of the deposited data

How the results depend on the processing

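How many members were called depended on which libraries entered a fit and on how their spread was modelled. For KO minus WT in testis, 0 members became 9 under library quality weights. There 4 were called in a fit of all 13 libraries, 1 with the replicate block, and 0 to 9 when libraries were left out (9 without KO replicate 1). With the set as a covariate, KO minus WT in either cell type is KO replicate 1 minus WT, so its calls are not counted here. In round spermatids 0 became 9 under weights, and 0 to 9 when libraries were left out (9 without KO replicate 1). For Het minus WT, 0 became 4 with centred libraries, 9 under weights, 9 with the replicate block, and 0 to 9 when libraries were left out (9 without KO replicate 1, 7 without KO replicate 3). For round spermatids minus testis in WT, 3 became 1 without a filter, 1 by voom, 6 under weights and 5 once the set was a covariate. The count was 5 with the replicate block, 8 in a fit of WT alone, and 0 to 4 when libraries were left out. Within set 1 it was 9 for WT alone and 10 with KO replicate 1 averaged in. In KO, 0 became 2 with centred libraries, 5 under weights and 3 once the set was a covariate. There 1 was called with the replicate block, and 0 to 4 when libraries were left out. Within set 2, with Het averaged in, 6 were called. For the KO minus WT difference in round spermatids less that in testis, 0 became 7 under weights, 3 once the set was a covariate, 1 with the replicate block, and 0 to 7 when libraries were left out (7 without KO replicate 1 of testis). Same-numbered libraries of different genotypes did not deviate together (correlations −0.0179 to 0.0456), so in KO minus WT and Het minus WT the replicate block describes a shared number, not a pairing.

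Counts over all genes moved likewise. For KO minus WT in testis they were 0, against 12535 under weights, 4153 in a fit of all 13 libraries, 152 with the replicate block and up to 11976 when libraries were left out. In round spermatids they were 0, against 5706 under weights, 4 with centring and up to 5514. For Het minus WT they were 0, against 4815 under weights, 1589 with the block, 440 with centring and up to 4739. For round spermatids minus testis in WT they were 2305, against 1182 with centring, 6221 under weights, 4915 with the set, 5954 for WT alone, 7582 within set 1 and 670 to 5966 when libraries were left out. In KO they were 474, against 254 at a pseudocount of 0.1 RPM, 932 with centring, 10322 under weights and 4201 with the set. They were 987 with the block, 0 for KO alone and 18 to 8039 when libraries were left out. Within set 2, with Het averaged in, they were 9833. The difference between cell types in KO minus WT called 428, against 0 with centring, 6946 under weights, 2773 with the set and 0 to 6211. By voom on the recovered reads the counts were 0, 0, 0, 2520, 495 and 334, in the same order.

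Of the values of single members under these alternatives, 880 kept direction and call, 140 passed the threshold only there, 22 no longer passed it and 38 turned. With the set as a covariate, where KO minus WT is KO replicate 1 minus WT, it turned for some members. These were Pdilt (−0.138), Hspa5 (−0.290) and P4hb (−0.789) in testis and Calr3 (−0.167) in round spermatids. Without that covariate, Calr3 in round spermatids ran from −0.192 to 0.468 when libraries were left out. Calr3 in WT round spermatids minus testis turned with centred libraries (−0.128) and ran from −0.771 to 1.21. In KO round spermatids minus testis, centring turned Hsp90b1 (0.388), Hyou1 (0.00854) and Canx (0.103), and weights turned Hspa5 (−0.179), Pdia3 (−0.110) and Calr (−0.262). Calr also turned by voom (−0.102) and within set 2 with Het averaged in (−0.342). Leaving out libraries in that KO comparison gave −0.618 to 0.958 for Hspa5, −0.965 to 0.472 for Hsp90b1 and −2.20 to 0.418 for Hyou1. It gave −0.374 to 0.886 for Pdia3, −0.469 to 0.274 for Calr and −1.36 to 0.183 for Canx. The difference between cell types in KO minus WT turned with centring for Pdilt (0.0411), Hspa5 (0.561) and Calr (0.400), and ran from −1.26 to 0.315 for Hspa5 and from −0.629 to 1.74 for P4hb when libraries were left out. None of these members was called in that comparison as reported, and the cause was not tested. Centring moved the all-gene median of round spermatids minus testis to −0.15 in WT and 0.33 in KO, against 0.20 and −0.14 as deposited.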
